A study of Arabidopsis thaliana with 20 samples.

Results

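The drought response of leaves was compared between the bam1 mutant and its wild type Col-0 in Arabidopsis thaliana, to ask which transcripts responded differently in the 2 genotypes. The measure was the interaction of genotype and drought, the log2 drought effect in bam1 minus the log2 drought effect in Col-0. Its members were the 11 arrays of whole leaves among the 20 arrays of the series, chosen by their titles. They were bam1 after 5 days of drought (3 arrays), Col-0 after 5 days of drought (2 arrays), bam1 under control conditions (3 arrays) and Col-0 under control conditions (3 arrays). Plants were 5 weeks old, and each array carried RNA of 5 to 8 pooled plants. The mutant is a single T-DNA insertion line, SALK_039895, so any difference between the genotypes is a difference between this line and Col-0.

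BAM1 is a chloroplast beta-amylase, an enzyme that releases maltose from starch, and in leaves it is best known from guard cells. During drought, plants make abscisic acid (ABA). ABA releases SnRK2 kinases from inhibition by clade A protein phosphatases, and the kinases activate transcription factors that turn on protective genes such as dehydrins. A whole leaf holds mostly mesophyll cells, with few guard cells, and in such bulk RNA fewer cells of a type and less RNA per cell cannot be told apart.

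A negative interaction can arise in 2 ways, because the transcript was higher in bam1 control leaves or because it was lower in droughted bam1 leaves. The interaction was therefore split into the genotype difference under control conditions (bam1 minus Col-0, control) and the genotype difference under drought (bam1 minus Col-0, droughted). It equals the second minus the first. A feature (an array probe) counted as called where limma's p, adjusted by Benjamini-Hochberg, was under 0.05 and the change was at least 2-fold. All signals are log2 values after quantile normalisation of the 11 leaf arrays, and errors of differences are standard errors (SE).

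The median processed signal of a leaf array was 210 to 296, except 576 on bam1 control array 2, and 63.2% to 68.6% of spots were well above background. Across probes, Pearson's r was 0.977 to 0.991 within groups (10 pairs of arrays) and 0.955 to 0.986 between groups (45 pairs). Of 43603 probes, 28715 were tested, which stood for 18141 genes when the brightest probe was taken for each. The arrays lay on 6 slides, and no slide held control arrays of both genotypes, so slide and genotype cannot be told apart by a direct comparison of control leaves. An interaction within slides could be formed from Col-0 drought 1 against Col-0 control 1 on one slide and bam1 drought 3 against bam1 control 3 on another, and a genotype difference under drought from bam1 drought 2 against Col-0 drought 2. The p-values measure the spread between these arrays, which may be partly technical.

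The transcript of the disrupted gene was read first. BAM1 (AT3G23920) had 8.32, 7.60 and 8.06 in droughted bam1 leaves, against 13.37 and 12.93 in droughted Col-0 leaves. It had 6.93, 7.15 and 6.61 in bam1 control leaves, against 12.02, 12.60 and 11.15 in Col-0 control leaves. The signal was far lower in every bam1 array than in any Col-0 array, which fits the labels. The drought effect was 1.10 in bam1 (limma adjusted p = 0.0548) and 1.22 in Col-0 (adjusted p = 0.0534), called in neither, and the interaction was −0.13 ± 0.51 (SE, limma adjusted p = 0.924). The genotypes thus differed by almost the same amount under drought (−5.15, adjusted p = 0.00255) and control conditions (−5.03, adjusted p = 0.00028). Among the 8 beta-amylases tested, of 9 in the family list, the interaction ran between −0.85 for BAM2 and 0.41 for BAM5. BAM7, a beta-amylase-like nuclear transcription factor, was the one with an unadjusted p under 0.05 (−0.56, limma adjusted p = 0.353).

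Across all probes the interaction was called for 6 of 28715 features (percent called 0.0209), all with a lower drought effect in bam1. At an unadjusted p under 0.05 there were 3845 features (13.4%), 2042 with a higher and 1803 with a lower drought effect in bam1. Among fits that kept both droughted Col-0 arrays, this count ran between 2610 without bam1 drought 1 and 5317 without bam1 control 1. The median SE of the interaction was 0.25. The genotypes differed in 34 features under drought (15 higher and 19 lower in bam1, percent called 0.118) and in 136 features under control conditions (110 higher and 26 lower in bam1, percent called 0.474). For comparison, drought changed 1537 features in bam1 (461 higher, 1076 lower, percent called 5.35) and 1776 in Col-0 (678 higher, 1098 lower, percent called 6.18). With slide added to the fit as a fixed block, the count was 0 for the interaction, both genotype differences and drought in bam1. It was 271 for drought in Col-0. With 11 arrays, a fit of 4 groups and 6 slides leaves few residual degrees of freedom, which limits what can be called. In that fit, 4041 features had an unadjusted p under 0.05 for the interaction. The count of genotype differences in control leaves fell to 84 without bam1 control 2 and 74 without Col-0 control 3. Under drought, the count of 34 was 11, 8 and 16 without bam1 drought 1, 2 and 3, and 10 and 67 without Col-0 drought 1 and 2. It was 153 without bam1 control 1, 146 without bam1 control 3 and 20 without Col-0 control 3, arrays that enter it through the shared estimate of spread. The drought effect in Col-0 was called for 1169 features without Col-0 drought 1. The interaction was called for 1 feature without bam1 drought 3, bam1 control 2 or Col-0 control 3, for 2 without bam1 drought 2, bam1 control 1 or Col-0 control 2, for 3 without Col-0 control 1, and for 4 to 7 without any other single array. With the probe filter set again it was called for 18 without bam1 drought 3, 14 without bam1 control 1, and 2 to 10 without any other bam1 or Col-0 control array. Without Col-0 drought 1 or 2, a lone droughted Col-0 array remained, and a probe could then pass the filter through that array alone. The count then rose far above these and is not read as a result.

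To describe where the differences sat, the 100 genes with the lowest and the 100 with the highest moderated t of the interaction were taken, among 791 genes with an interaction of at least 1 in size (537 lower, 254 higher). These sets were chosen on the interaction itself, and their values are a description. Limma adjusted p of the interaction ran between 0.0206 and 0.294 in the lowest 100 and between 0.135 and 0.354 in the highest 100. At the edge of the lowest set, AT5G45880 was the last gene inside (−1.16, t = −3.59) and GSTU8 the first outside (−4.58, t = −3.59). At the edge of the highest set, AT4G19460 was the last inside (1.12, t = 2.57) and AT1G68200 the first outside (1.74, t = 2.57).

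In the lowest 100 genes, the median interaction of −1.43 was made up of a median genotype difference of −0.63 under drought and 0.87 under control conditions. Put as drought effects, the median gene had a log2 change of −0.88 in bam1 and 0.54 in Col-0. The drought effects had opposite signs in 62 of the 100 genes, beside 6398 of all 18141 genes tested. In bam1, drought lowered 39 of them past the threshold and raised 4. In Col-0, drought lowered 2 and raised 30. Over all genes tested, the share lowered was 4.13% in bam1 and 4.2% in Col-0, and the share raised was 1.7% in bam1 and 2.44% in Col-0. The droughted arrays of the genotypes did not overlap, with bam1 lower, in 61 of the 100 genes, beside 24.8% of all genes tested, and with bam1 higher in 12, beside 22.9%. The control arrays did not overlap, with bam1 higher, in 67 of the 100, beside 6.51% of all genes, and with bam1 lower in 2, beside 9.48%. The genotype difference itself was called under drought for 4 of the 100 (all lower in bam1, background 0.0827%) and under control conditions for 28 (all higher in bam1, background 0.424%).

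The highest 100 genes had a different make-up. Their median interaction of 1.17 came from a median genotype difference of 0.74 under drought and −0.52 under control conditions. The median drought effect was 0.36 in bam1 and −0.89 in Col-0. The drought effects had opposite signs in 69 genes, beside 6398 of all 18141 genes tested. In bam1, drought raised 10 of them and lowered 6 past the threshold, while in Col-0 it lowered 35. The droughted arrays had bam1 higher without overlap in 77 genes, beside 22.9% of all genes, and the control arrays had bam1 lower without overlap in 46, beside 9.48%. The genotype difference was called for 1 gene under drought (higher in bam1, background 0.0441%) and 4 under control conditions (lower in bam1, background 0.116%).

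**Figure D1:**
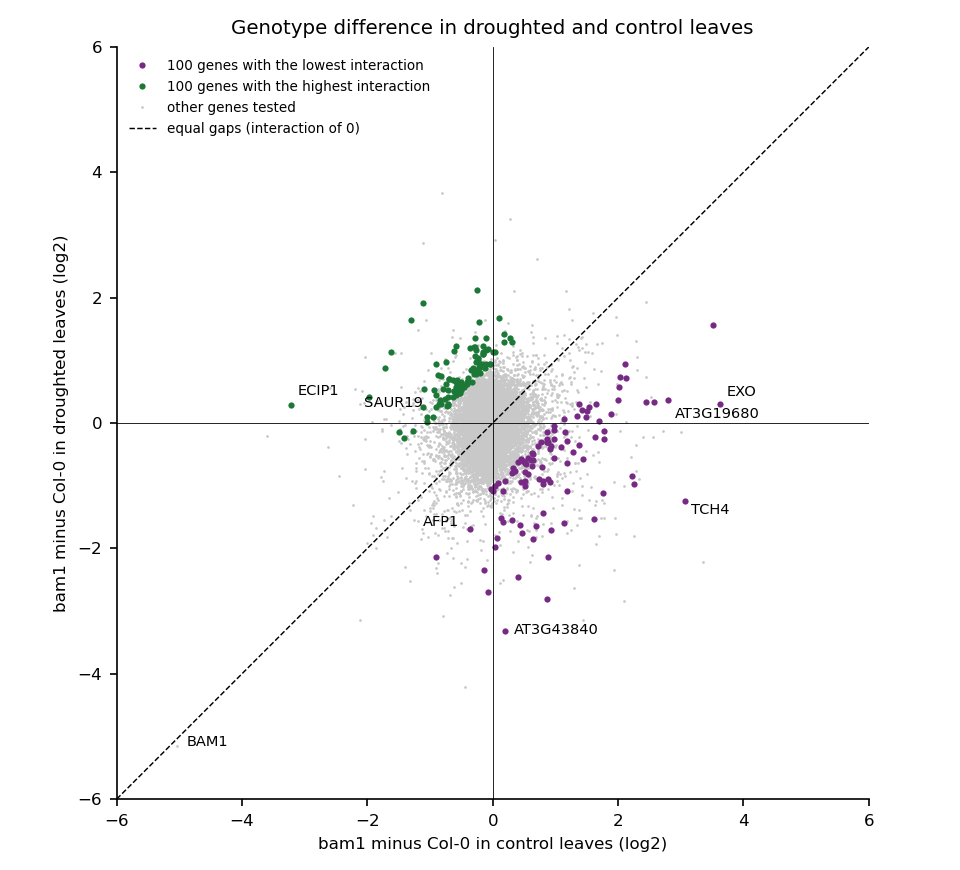
Genotype difference under drought (vertical axis, bam1 minus Col-0, log2) against the genotype difference under control conditions (horizontal axis, log2), 1 point per gene; purple, the 100 genes with the lowest interaction; green, the 100 with the highest; dashed line, equal differences and so an interaction of 0. Purple points spread mostly to the right, where bam1 was higher in control leaves, and green points mostly upwards, where bam1 was higher under drought, while BAM1 lies on the dashed line at −5.03 and −5.15.

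A gene was assigned to the control arrays where its genotype difference there was at least 2 times that under drought in size, to the droughted arrays in the reverse case, and otherwise to both. Of the lowest 100 genes, 27 were assigned to the droughted arrays, 43 to the control arrays and 30 to both. Of the highest 100 genes, 41 were assigned to the droughted arrays, 17 to the control arrays and 42 to both. Of all genes tested, 40.7% were assigned to the droughted arrays, 21.1% to the control arrays and 38.1% to both. With all 11 arrays in the fit, the share of the lowest set in the control arrays was above that of all genes, while both shares of the highest set stood near those of all genes. With an array left out, each set was chosen anew. Without bam1 control 1, the lowest set shared 45 genes with the first choice, and 22 of its 100 genes were assigned to the control arrays, beside 22.6% of all genes, so its larger share rests on that array. The count of 43 was 27 without bam1 drought 3, and 31 and 32 without Col-0 drought 1 and 2. The count of 41 for the highest set was 27 without bam1 control 1, and 69 and 72 without Col-0 drought 1 and 2, in sets that shared 50, 33 and 36 genes with the first choice.

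**Figure D2:**
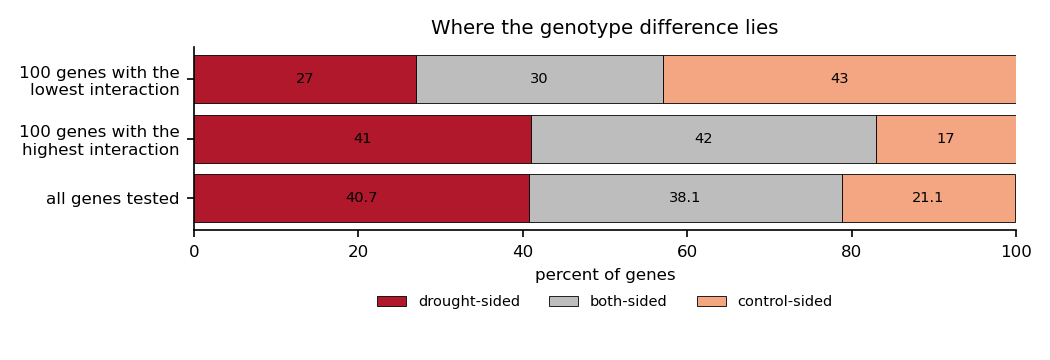
Share of genes (horizontal axis, percent) whose genotype difference lay mainly in the droughted arrays, mainly in the control arrays or in both, for the 100 genes with the lowest interaction, the 100 with the highest and all genes tested. The control arrays hold 43 of the lowest 100, 17 of the highest 100 and 21.1% of all genes.

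Of the 6 called features, 4 belonged to 3 genes whose difference sat in the control arrays. AT3G19680 was measured by 3 probes, 2 of them called. Its first probe had 7.90, 7.82 and 7.73 in droughted bam1 leaves and 7.49 and 7.47 in droughted Col-0 leaves. In control leaves it had 9.63, 9.75 and 9.42 in bam1, against 6.52, 6.20 and 6.57 in Col-0. The droughted arrays of both genotypes stood close together between the widely separated control arrays. Drought changed the transcript in opposite directions, by −1.78 in bam1 (limma adjusted p = 7.24e-05) and by 1.05 in Col-0 (adjusted p = 0.00163). The interaction was −2.83 ± 0.20 (SE, limma adjusted p = 0.00179), and −2.65 within slides. The genotype difference was 0.34 under drought (adjusted p = 0.243) and 3.17 under control conditions (adjusted p = 1.19e-05). The second probe gave an interaction of −2.44 (limma adjusted p = 0.0357). The third gave −3.46 but missed the threshold (adjusted p = 0.0808). Both again had their larger genotype difference in control leaves, of 2.80 and 3.22.

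AT5G25240 and AT2G41330 had the same shape. AT5G25240 had 9.85, 9.72 and 9.57 in droughted bam1 leaves and 9.21 and 9.56 in droughted Col-0 leaves. The control arrays had 11.21, 11.12 and 10.87 in bam1, against 8.56, 8.48 and 8.83 in Col-0. The bam1 control arrays were the highest of all 11 and the Col-0 control arrays the lowest. The interaction was −2.12 ± 0.23 (SE, limma adjusted p = 0.0206). The value within slides was −1.95. AT2G41330 had 9.70, 9.61 and 9.63 in droughted bam1 leaves and 9.47 and 9.51 in droughted Col-0 leaves. Under control conditions it had 10.93, 10.75 and 10.57 in bam1, against 8.96, 8.81 and 8.86 in Col-0. Here too the 4 groups did not overlap, with both droughted groups in between. The interaction was −1.72 ± 0.17 (SE, limma adjusted p = 0.0206), and −1.46 within slides. Under control conditions bam1 exceeded Col-0 by 2.44 for AT5G25240 and 1.88 for AT2G41330 (limma adjusted p = 0.000182 for each). The reference table gives none of these 3 loci a gene symbol, and no role is stated here.

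The other 2 called features had their difference in the droughted arrays. AT3G43840 had 2.70, 2.75 and 2.74 in droughted bam1 leaves, against 5.49 and 6.61 in droughted Col-0 leaves. Without drought, the signal was 2.79, 2.70 and 3.31 in bam1, against 2.67, 2.79 and 2.76 in Col-0. It was well above background on the 2 droughted Col-0 arrays and on no other, so it was tested only through the group where it is high. The fitted interaction of −3.51 (limma adjusted p = 0.0206) uses 9 signals not well above background and has no firm value. Droughted bam1 leaves were at least 6.84-fold lower than droughted Col-0 leaves. Such a bound sets the mean of the group above background against a mean for the other group in which each array counts with the lowest signal well above background on it, or with the probe's own signal where that is higher. Probe A_84_P770280, which had no locus in the reference table, had 4.33, 3.47 and 4.04 in droughted bam1 leaves, against 6.35 and 6.24 in droughted Col-0 leaves. Leaves of control plants had 5.64, 5.46 and 5.81 in bam1, against 5.08, 4.85 and 5.18 in Col-0. The droughted Col-0 arrays were the highest and the droughted bam1 arrays, none of them above background, the lowest. The fitted interaction of −2.95 (limma adjusted p = 0.0206) likewise has no firm value, and droughted bam1 was at least 5.06-fold lower than droughted Col-0.

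**Figure D3:**
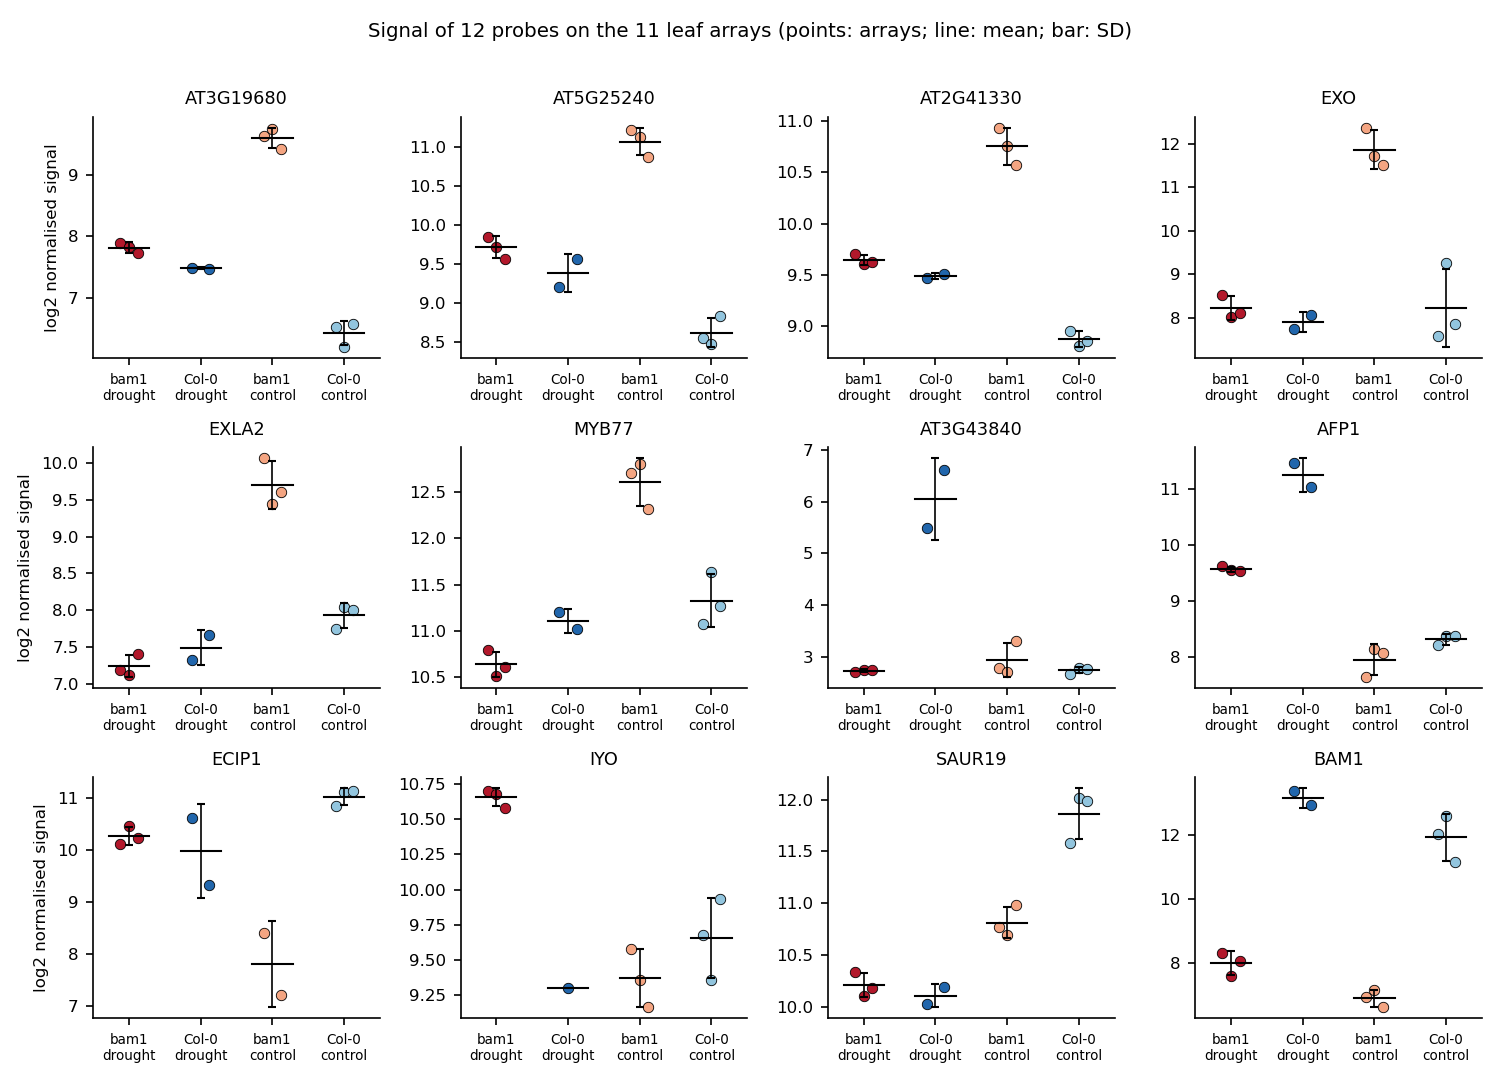
Log2 signal (vertical axis) of 12 genes in each leaf array, by group: droughted bam1, droughted Col-0, control bam1 and control Col-0; points are arrays, the line is the group mean and the bar the SD. AT3G19680, AT5G25240, AT2G41330, EXO, EXLA2 and MYB77 are highest in the bam1 control arrays, AT3G43840 stands out in the droughted Col-0 arrays, and BAM1 is low in all bam1 arrays.

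Cell wall genes were among the further transcripts that were high in bam1 control leaves. EXORDIUM (EXO), an extracellular protein of brassinosteroid- and carbon-dependent growth, had 8.53, 8.01 and 8.12 in droughted bam1 leaves and 7.75 and 8.07 in droughted Col-0 leaves on its brightest probe. In the absence of drought it had 12.36, 11.72 and 11.50 in bam1, against 7.58, 9.25 and 7.85 in Col-0. All 3 bam1 control arrays lay more than 2 log2 units above every other array. The drought effect was −3.64 in bam1 (limma adjusted p = 0.000364) and −0.32 in Col-0. The interaction of −3.32 ± 0.59 (SE) did not pass the threshold (limma adjusted p = 0.15), nor did the other 2 probes of the gene (−3.79, adjusted p = 0.0778, and −4.32, adjusted p = 0.0875). The genotype difference in control leaves was called on all 3 probes, at 3.63, 3.84 and 4.34, while that under drought was at most 0.31.

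The 3 expansin-like A genes were all called higher in bam1 control leaves. Expansins loosen the wall, and the function of the expansin-like branch is less well known. EXLA2 had 7.19, 7.12 and 7.41 in droughted bam1 leaves and 7.32 and 7.66 in droughted Col-0 leaves. In control leaves it had 10.07, 9.44 and 9.61 in bam1, against 7.74, 8.05 and 8.00 in Col-0. The bam1 control arrays stood above all others. The interaction was −2.03 ± 0.27 (SE, limma adjusted p = 0.0778). The genotype difference in control leaves was 1.78 for EXLA2 (adjusted p = 0.00239), 1.69 for EXLA1 (adjusted p = 0.00883) and 1.64 for EXLA3 (adjusted p = 0.0246). All 3 were called, as was EXPA16, an alpha-expansin, at 1.07 (adjusted p = 0.0451). The interactions of EXLA1 (−1.66) and EXLA3 (−1.87) did not pass the threshold. Over the 17 expansins tested, the median interaction was 0.17, with 3 members higher and 3 lower at an unadjusted p under 0.05 (7.78% and 6.25% of all genes), and the 3 higher were EXPA10 (0.87), EXPA1 (0.81) and EXPB3 (0.68). In control leaves the median genotype difference of the family was −0.16, and 4 of the 17 were called higher in bam1, beside 0.424% of all genes. The control arrays did not overlap with bam1 higher in 4 members and lower in 5 (6.51% and 9.48% of all genes). The lower ones included EXPA1 (−0.82).

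Xyloglucan endotransglucosylases (XTH) cut and rejoin the hemicellulose xyloglucan. Of 20 members tested, 16 had a negative and 4 a positive interaction, with 5 lower and 0 higher at an unadjusted p under 0.05 (6.25% and 7.78% of all genes) and a median of −0.42, against 0.03 over all genes. XTH9 had 11.23, 11.06 and 11 in droughted bam1 leaves and 10.27 and 11.21 in droughted Col-0 leaves. The control arrays had 14.19, 13.56 and 13.95 in bam1, against 11.78, 12.18 and 11.72 in Col-0. The control arrays did not overlap, while the droughted ones did. XTH9 fell with drought in both genotypes, with an effect of −2.80 in bam1 (limma adjusted p = 0.000139) and −1.16 in Col-0 (adjusted p = 0.0197). The interaction was −1.64 (adjusted p = 0.229) and the genotype difference in control leaves 2.00 (adjusted p = 0.00636). XTH30 (1.35, limma adjusted p = 0.0082) and XTH33 (2.44, adjusted p = 0.0162) were the other members called higher in bam1 control leaves. With XTH9 these were 3 of 20, beside 0.424% of all genes. XTH33 was above background on no droughted array, so its interaction has no firm value. TCH4, a touch-induced XTH, had the most negative interaction of the family (−4.32 ± 1.09, SE, limma adjusted p = 0.272) but scattered widely. Its 3 Col-0 control arrays had 8.68, 11.35 and 9.64 and its 2 droughted Col-0 arrays 11.74 and 9.44. In bam1 it had 9.73, 9.16 and 9.12 under drought and 13.40, 13.42 and 12.07 under control conditions.

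Arabinogalactan proteins, glycoproteins of the wall and plasma membrane, were another wall family. Of 35 tested, 5 were called higher in bam1 control leaves, beside 0.424% of all genes (AGP17, AGP7, FLA13, AGP12 and AGP16, by 1.96, 1.52, 1.28, 1.04 and 1.02). AGP17 was also called under drought, by 1.69 (limma adjusted p = 0.0283), and its interaction was −0.27. The droughted arrays did not overlap with bam1 higher in 20 of the 35 and lower in 2 (22.9% and 24.8% of all genes). For the control arrays these counts were 9 and 2 (6.51% and 9.48% of all genes). The median genotype difference of the family was 0.31 under drought and 0.17 under control conditions. The median interaction of the family was 0.07, with 2 members higher and 5 lower at an unadjusted p under 0.05 (7.78% and 6.25% of all genes). They included AGP5 (−1.24), AGP2 (−0.95) and AGP31 (0.96). The 18 pectin-modifying enzymes tested had a median genotype difference of −0.01 in control leaves.

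Of 70 MYB factors tested, 4 were called higher in bam1 control leaves, beside 0.424% of all genes. All 4 belong to subgroup 22, whose members in Arabidopsis act in abscisic acid and auxin responses, a grouping made after their values were seen and not tested. MYB77 had 10.79, 10.52 and 10.61 in droughted bam1 leaves, against 11.20 and 11.02 in droughted Col-0 leaves. Under control conditions it had 12.70, 12.80 and 12.31 in bam1, against 11.07, 11.64 and 11.27 in Col-0. The bam1 arrays were highest under control conditions and lowest under drought. Its interaction was −1.74 ± 0.27 (SE, limma adjusted p = 0.119). In control leaves MYB70 (2.11, limma adjusted p = 0.00157), MYB73 (1.42, adjusted p = 0.00758) and MYBR1, also known as MYB44 (1.16, adjusted p = 0.00591), were called higher in bam1, as was MYB77 (1.28, adjusted p = 0.011). MYB70 differed in that droughted bam1 leaves, with 11.99, 11.98 and 11.85, stayed above droughted Col-0 leaves, with 11.12 and 10.88. Its control values were 13.42, 13.31 and 12.62 in bam1, against 11.10, 10.84 and 11.09 in Col-0. The 70 factors had a median interaction of −0.04. MYB96, a regulator of cuticular wax synthesis, also lay in the lowest 100 (−1.38, adjusted p = 0.208) without a called genotype difference.

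RVE2, a MYB-like relative of the circadian clock genes, showed a further shape. It had 10.67, 10.78 and 10.77 in droughted bam1 leaves and 10.45 and 10.52 in droughted Col-0 leaves. Without drought, the signal was 10.61, 10.79 and 10.99 in bam1, against 9.07, 9.42 and 9.31 in Col-0. The Col-0 control arrays stood apart from the other 8. Drought raised RVE2 by 1.22 in Col-0 (limma adjusted p = 0.000678), while the effect in bam1 was −0.06. The interaction was −1.28 ± 0.20 (SE, adjusted p = 0.119). Among 21 clock genes tested the median interaction was 0.01, with 1 higher and 4 lower at an unadjusted p under 0.05 (7.78% and 6.25% of all genes). The 4 were RVE1 (−1.22), CDF1 (−0.84), BOA (−0.76) and LNK1 (AT5G64170, −0.67), and none was called. Other low transcripts taken by the naming rule were ULT1, a SAND-domain regulator of meristems, with −1.39 ± 0.20 (SE, limma adjusted p = 0.0902), AT1G06475 with −1.73 and AT4G35320 with −1.22. Each of these 3 probes was called higher in bam1 control leaves, by 1.40, 1.38 and 1.34. A second, brighter probe of ULT1 gave an interaction of −1.03 (limma adjusted p = 0.235). Its genotype difference in control leaves of 0.98 was under 2-fold and so was not called.

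ABA and drought-response genes were tested as a list of 36, of which 33 had a tested probe. Drought raised 13 of them past the threshold in bam1 (1.7% of all genes) and 18 in Col-0 (2.44% of all genes), 12 of them in both, and the median drought effect was 0.82 in bam1 and 1.16 in Col-0. The interaction was negative for 25 and positive for 8, with 7 lower and 0 higher at an unadjusted p under 0.05 (6.25% and 7.78% of all genes) and a median of −0.32. No member was called for the interaction. The droughted arrays had bam1 lower without overlap in 19 of the 33 and higher in 1, where 24.8% and 22.9% of all genes did. By the rule above, 17 were assigned to the droughted and 5 to the control arrays. The median of the list was −0.14 without Col-0 drought 1 and −0.60 without Col-0 drought 2.

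HAI1, a clade A phosphatase that restrains ABA signalling and is induced by it, had 10.65, 10.57 and 10.68 in droughted bam1 leaves, against 11.95 and 11.48 in droughted Col-0 leaves. Leaves of control plants had 8.25, 8.29 and 7.86 in bam1, and 8.13, 8.10 and 7.66 in Col-0. The control arrays overlapped and the droughted arrays did not. Drought raised it by 2.50 in bam1 and 3.75 in Col-0, both called, and the interaction was −1.25 ± 0.27 (SE, limma adjusted p = 0.22). ABI2, of the same clade, had 10.76, 11.27 and 11.09 in droughted bam1 leaves, against 12.29 and 11.96 in droughted Col-0 leaves. Its control values were 10.86, 10.96 and 10.93 in bam1 and 11.15, 10.68 and 10.88 in Col-0. Drought raised ABI2 in Col-0 by 1.22 (limma adjusted p = 0.00248), and its effect in bam1 was 0.13. The interaction was −1.09 (adjusted p = 0.235).

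The dehydrin LTI30 had 13.59, 14.04 and 14.16 in droughted bam1 leaves, against 14.52 and 14.65 in droughted Col-0 leaves. In the absence of drought it had 11.61, 12.31 and 12.29 in bam1, and 11.64, 11.40 and 11.58 in Col-0. The droughted arrays did not overlap and the control arrays did, and its interaction was −1.19 (limma adjusted p = 0.276). CYP707A1, which breaks down ABA, had −1.17 (limma adjusted p = 0.235), with the larger genotype difference in control leaves (0.87). The genotype difference under drought was called for 2 of the 33 members tested, both lower in bam1, beside 0.0827% of all genes. The NAC factor RD26 had 10.96, 10.84 and 11.03 in droughted bam1 leaves, against 13.04 and 12.53 in droughted Col-0 leaves. In control leaves it had 11.25, 11.59 and 11.28 in bam1, against 12.00, 12.89 and 12.65 in Col-0. RD26 was thus lower in bam1 in both conditions, with genotype differences of −1.85 under drought (limma adjusted p = 0.0283) and −1.14 under control conditions (adjusted p = 0.0564). The homeodomain factor HB-12 had 11.26, 11.43 and 11.23 in droughted bam1 leaves, against 13.31 and 12.94 in droughted Col-0 leaves. Its control values were 10.16, 10.63 and 11 in bam1, against 11.39, 11.82 and 11.69 in Col-0. It followed the same pattern, with −1.82 under drought (limma adjusted p = 0.0256) and −1.04 under control conditions (adjusted p = 0.0605). The interactions of RD26 (−0.71, limma adjusted p = 0.393) and HB-12 (−0.78, adjusted p = 0.347) were smaller in size than the genotype difference in either condition and were not called.

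**Figure D4:**
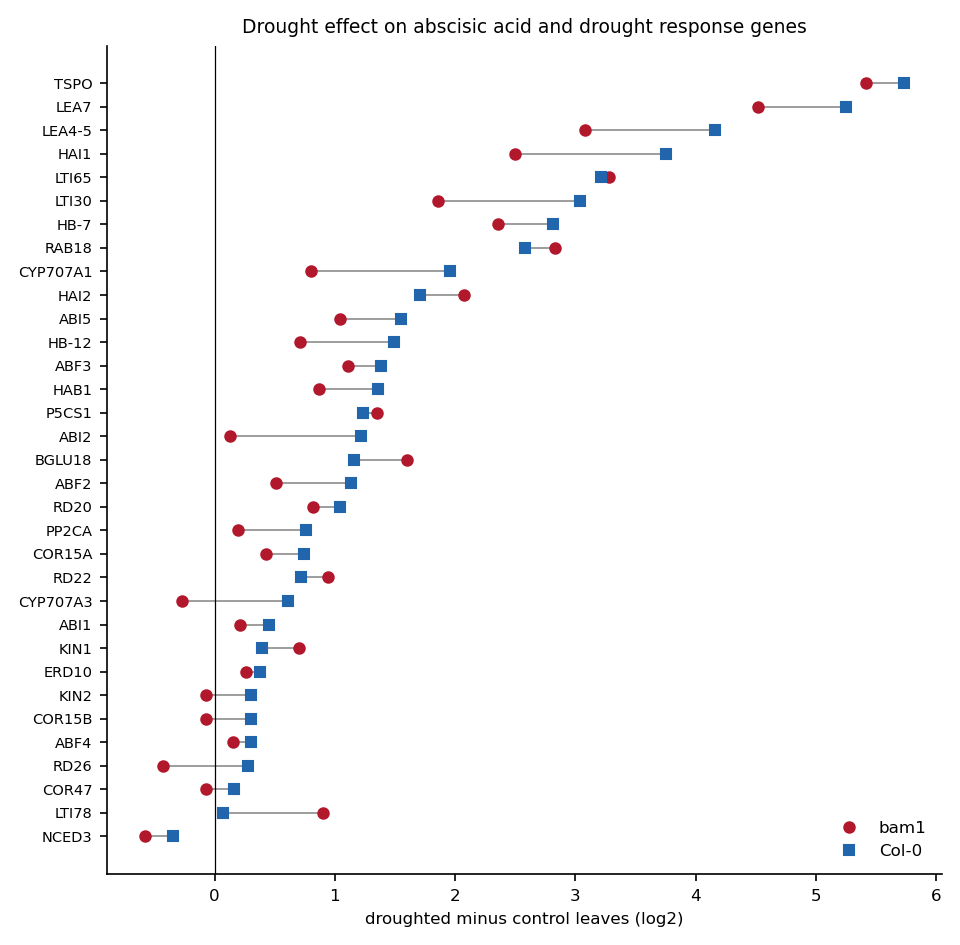
Drought effect (horizontal axis, drought minus control, log2) in bam1 (red circles) and Col-0 (blue squares) for the 33 ABA and drought-response genes tested, 1 gene a line. The Col-0 value lies to the right of the bam1 value in 25 genes, and HAI1 has 2.50 in bam1 and 3.75 in Col-0.

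AFP1, a binding protein of ABI5 that dampens ABA signalling, was not on the list and was chosen after its values were seen. It had 9.62, 9.55 and 9.53 in droughted bam1 leaves, against 11.47 and 11.04 in droughted Col-0 leaves. The control arrays had 7.63, 8.13 and 8.07 in bam1, and 8.20, 8.36 and 8.36 in Col-0. Drought raised it in both genotypes, by 1.63 in bam1 and 2.95 in Col-0. The droughted bam1 arrays stayed below both droughted Col-0 arrays (−1.69, limma adjusted p = 0.0108), and the interaction was −1.32 ± 0.24 (SE, adjusted p = 0.15).

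None of the transcripts at the high end passed the threshold for the interaction, where the 15 named by rule had limma adjusted p of 0.135 to 0.208. Of these 15, 6 were assigned to the droughted arrays, 3 to the control arrays and 6 to both. ENGase85B, an endo-beta-N-acetylglucosaminidase that trims N-glycans, had 9.18, 9.02 and 8.83 in droughted bam1 leaves, against 8.12 and 8.11 in droughted Col-0 leaves. Under control conditions it had 8.99, 8.92 and 8.74 in bam1, and 9.02, 9.15 and 9.06 in Col-0. The droughted Col-0 arrays stood below the other 9. The interaction was 1.09 ± 0.18 (SE, limma adjusted p = 0.135), and the genotype difference under drought of 0.89 (adjusted p = 0.0438) was under 2-fold and so was not called. AT3G51870, a putative ADP,ATP carrier (1.24), had a genotype difference of 0.98 under drought and −0.27 under control conditions. AT3G01450 (1.16) was assigned to both, with 0.66 under drought and −0.50 under control conditions.

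IYO (MINIYO), which binds RNA polymerase II and promotes differentiation, was measured on a single droughted Col-0 array. It had 10.70, 10.68 and 10.58 in droughted bam1 leaves, against 9.30 on that Col-0 array. Without drought, the signal was 9.58, 9.36 and 9.17 in bam1, and 9.68, 9.36 and 9.93 in Col-0. Drought raised IYO in bam1 by 1.28 (limma adjusted p = 0.00127), with −0.36 in Col-0, and the interaction was 1.64 ± 0.29 (SE, adjusted p = 0.163). This fit takes the spread from the other groups and assumes that the lone array varies like them. ERF2, an ethylene response factor that activates transcription, had 12.93, 12.54 and 12.73 in droughted bam1 leaves, against 11.96 and 11.22 in droughted Col-0 leaves. Leaves of control plants had 11.12, 11.51 and 10.96 in bam1, and 11.56, 12.07 and 11.82 in Col-0. It rose with drought in bam1 by 1.54 (limma adjusted p = 0.00173), its effect in Col-0 was −0.23, and the interaction was 1.76 ± 0.34 (SE, adjusted p = 0.185). RAPTOR1, the partner of the TOR kinase, had 11.04, 10.73 and 10.85 in droughted bam1 leaves, against 10.42 and 9.95 in droughted Col-0 leaves. Its control values were 10.13, 10.11 and 10.24 in bam1, against 10.64, 10.67 and 11.06 in Col-0. The order of the genotypes turned between conditions without overlap in either, with an interaction of 1.32 ± 0.24 (SE, limma adjusted p = 0.163).

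Another shape was a transcript low in bam1 control leaves. ECIP1, named for binding the ethylene regulator EIN2, had 10.11, 10.45 and 10.22 in droughted bam1 leaves, and 10.61 and 9.33 in droughted Col-0 leaves. In the absence of drought it had 8.39 and 7.21 on the 2 bam1 arrays with a value (an outlying spot removed the first), against 10.84, 11.11 and 11.12 in Col-0. The bam1 control arrays were the lowest of all, with a genotype difference of −3.22 (limma adjusted p = 0.00927) and an interaction of 3.51 ± 0.57 (SE, adjusted p = 0.15). AT5G18140 (DJC69, a DnaJ protein) was likewise called lower in bam1 control leaves (−1.90, limma adjusted p = 0.00384), also with bam1 control 1 missing, and had an interaction of 1.59. SAUR19, a small auxin-up RNA that promotes cell expansion, had 10.34, 10.11 and 10.18 in droughted bam1 leaves and 10.03 and 10.19 in droughted Col-0 leaves. In control leaves it had 10.77, 10.69 and 10.98 in bam1, against 11.58, 12.02 and 11.99 in Col-0. The droughted arrays overlapped, and Col-0 control leaves stood above the rest. SAUR19 fell with drought in Col-0 (−1.76, limma adjusted p = 0.000189), its drought effect in bam1 was −0.61, and the interaction was 1.15 ± 0.22 (SE, adjusted p = 0.183).

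In a further 3 of the 15, drought lowered the transcript past the threshold in Col-0, with a smaller estimate in bam1. AT2G10940, of the lipid transfer family, had 15.25, 15.26 and 15.26 in droughted bam1 leaves, against 14.35 and 14.36 in droughted Col-0 leaves. The control arrays had 16.69, 16.48 and 16.33 in bam1, and 16.49, 16.99 and 16.69 in Col-0. The control arrays overlapped and the droughted ones did not. The drought effect was −1.24 in bam1 and −2.37 in Col-0, with an interaction of 1.12 (limma adjusted p = 0.184). AT5G62280 had −0.91 in bam1 and −2.49 in Col-0 (1.58), and the receptor-like kinase IMK2 had −0.95 in bam1 and −2.15 in Col-0 (1.20). The other 3 were AT1G01320, a tetratricopeptide repeat protein (3.93), the cysteine-rich kinase CRK18 (2.18) and AT2G19650 (1.40), whose SEs were 0.77, 0.43 and 0.27.

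The functions among the largest interactions were counted with 52 gene lists that held 1332 members tested, out of 18141 genes tested. Of those 18141 genes, 10042 had no symbol. Of the lowest 100 genes, 20 were on a list and 41 had a gene symbol. Of the highest 100 genes, 6 were on a list and 49 had a symbol, so most of both sets lay outside any list. The lowest set held 5 of 70 MYB factors tested (MYB77, MYBR1, MYB96, MYB73 and MYB70) and 4 of 33 ABA genes (HAI1, ABI2, LTI30 and CYP707A1). It also held 3 of 17 expansins, all expansin-like, 2 of 20 XTH genes (TCH4 and XTH9) and EXO. The highest set held SAUR19, ERF2, IMK2, the nitrate reductase NIA2, the pectin methylesterase PME3 and the microtubule motor KINESIN-13A. No list had a member called for the interaction.

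Several lists leaned to a higher drought effect in bam1. Of 24 heat shock proteins, which are chaperones, 22 had a positive interaction, 7 of them at an unadjusted p under 0.05 (7.78% of all genes), with a median of 0.43. The droughted arrays had bam1 higher without overlap in 19 of the 24, where 22.9% of all genes did. In a second list, of heat shock and protein folding genes, 11 of 14 members tested had a positive interaction, with a median of 0.10, and 0 had a limma p, unadjusted, under 0.05. The droughted arrays had bam1 higher without overlap in 3 of the 14 and lower in 4 (22.9% and 24.8% of all genes). The mitochondrial chaperonin HSP60-2 had 11.72, 11.31 and 11.54 in droughted bam1 leaves, against 10.91 and 10.82 in droughted Col-0 leaves. Under control conditions it had 11.37, 10.91 and 11.02 in bam1, and 11.01, 11.48 and 11.24 in Col-0. The control arrays overlapped. Its interaction of 0.80 (limma adjusted p = 0.309) was the largest in size among members at an unadjusted p under 0.05, beside cpHsc70-2 (0.79), mtHsc70-1 (0.79) and HSP81-2 (0.72).

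Of 15 nitrogen assimilation genes, 13 had a positive interaction, 5 at an unadjusted p under 0.05 (7.78% of all genes), with a median of 0.36. The named members were the nitrate reductases NIA2 (1.52) and NIA1 (0.97, limma adjusted p = 0.272) and the nitrogen-responsive repressors LBD37 (0.94, adjusted p = 0.235) and LBD39 (0.73). NIA2 rests on 1 Col-0 control array, since the other 2 values were removed as outlying spots, and that array is assumed to vary like the other groups. LBD37 had 12.52, 12.49 and 12.75 in droughted bam1 leaves, against 12.21 and 12.23 in droughted Col-0 leaves. Without drought, the signal was 12.66, 12.71 and 12.38 in bam1, against 12.90, 13.28 and 13.32 in Col-0. The genotypes were separated in both conditions, in opposite directions.

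Starch genes also leaned upwards. Of 17 starch degradation genes other than beta-amylases, 15 had a positive interaction with a median of 0.27, and 3 had an unadjusted p under 0.05 (7.78% of all genes). These were the glucan phosphorylases PHS2 (0.86) and PHS1 (0.77) and the maltose-metabolising disproportionating enzyme DPE2 (0.76, limma adjusted p = 0.286). Of 20 starch synthesis genes, 16 were positive with a median of 0.22, and those at an unadjusted p under 0.05 were EMB2729 (0.89), the soluble starch synthase SS2 (0.62) and the granule-bound synthase GBSS1 (0.52). Of 18 DEAD box helicases and splicing factors, 14 were positive with a median of 0.22 and 5 had an unadjusted p under 0.05 (again beside 7.78%), led by DRH1 (0.86). Of 52 UDP-glycosyltransferases and related enzymes, 35 were positive with a median of 0.22. The lowest adjusted p there was for UGD3, a UDP-glucose dehydrogenase that supplies wall precursors (0.95, limma adjusted p = 0.133).

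Glutathione S-transferases, which conjugate toxic and oxidised compounds, leaned the other way. Of 32 tested, 25 had a negative interaction, 6 at an unadjusted p under 0.05 (6.25% of all genes), with a median of −0.32. GSTU8 had 6.21, 4.30 and 4.07 in droughted bam1 leaves, against 6.27 and 9.73 in droughted Col-0 leaves. Leaves of control plants had 5.82, 6.03 and 7.32 in bam1, and 5.51, 4.94 and 4.40 in Col-0. Col-0 drought 2 was the highest of all arrays, and the interaction was −4.58 (limma adjusted p = 0.29). GSTU4 had an interaction of −3.93, GSTF3 −0.94 and GSTF7 −0.94. Of 48 WRKY defence-related factors, 8 were lower and 0 higher at an unadjusted p under 0.05 (6.25% and 7.78% of all genes), with a median of 0.00 over the family. They included WRKY30 (−2.09), WRKY28 (−1.90), WRKY48 (−1.34) and WRKY60 (−1.20). The 23 jasmonate genes had a median interaction of −0.28, with JAZ5, a repressor of jasmonate signalling, at −1.56.

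Touch, wound and early stress genes had a median interaction of −0.21 over 22 members, which was 0.37 without Col-0 drought 1 and 0.11 without Col-0 control 1, so its sign rests on single arrays. In this list 2 cold-response activators were called lower in bam1 control leaves, beside 0.116% of all genes. They were DREB1A (−1.62, limma adjusted p = 0.00512) and CBF1 (−2.0, adjusted p = 0.0353). DREB1A was also called lower in bam1 under drought (−1.49, adjusted p = 0.0317), and both had interactions near 0 (0.14 and 0.10). Of 77 auxin genes, 6 were higher and 9 lower at an unadjusted p under 0.05 (7.78% and 6.25% of all genes), with a median of −0.03. Beside SAUR19, the auxin repressor IAA1 was called lower in bam1 control leaves (−1.07, limma adjusted p = 0.0124) and SAUR78 (AT1G72430) higher (1.75, adjusted p = 0.0052). The list thus had 1 called higher and 2 lower there (0.424% and 0.116% of all genes). Sugar starvation genes had a median of −0.02 over 18 members and sugar transport and cleavage genes 0.02 over 27, where the cell wall invertase ATBFRUCT1 had −1.53 (limma adjusted p = 0.314) and the vacuolar invertase ATBETAFRUCT4 0.68 (adjusted p = 0.29).

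**Figure D5:**
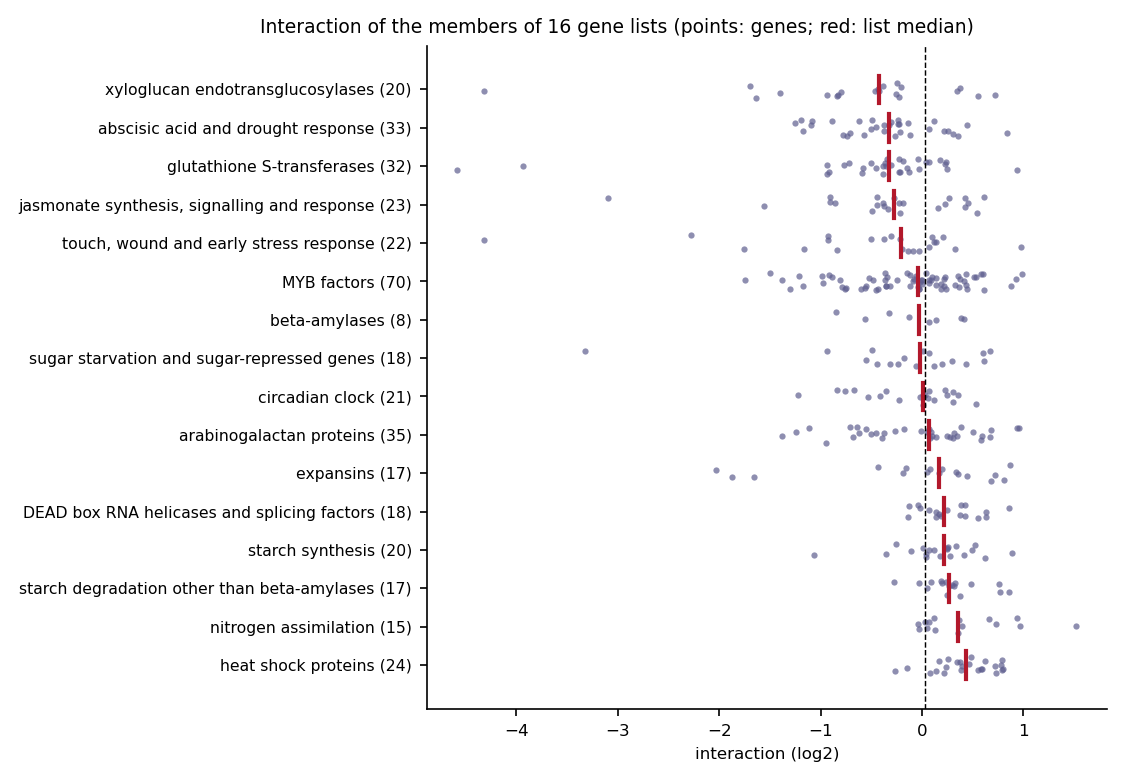
Interaction (horizontal axis, log2) of the members of 16 gene lists, with the number tested in brackets; points are genes, the red bar is the list median and the dashed line the median of all genes tested (0.03). Xyloglucan endotransglucosylases have the lowest median (−0.42) and heat shock proteins the highest (0.43).

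Markers of cell types were read beside these lists. The 9 guard cell markers were above background on all 11 arrays, and their summed linear signal was 6340 to 6860 in droughted bam1, 6720 to 7270 in droughted Col-0, 9180 to 11500 in bam1 control and 7760 to 10000 in Col-0 control leaves. Of the 9, 8 had a negative interaction, with a median of −0.19, and KAT2, a potassium channel, had −0.67. Summed signal of the 7 epidermis markers was 148000 to 169000 in droughted bam1, 62800 to 170000 in droughted Col-0, 110000 to 144000 in bam1 control and 68000 to 170000 in Col-0 control leaves. All 7 had a positive interaction (median 0.30), and their sums varied more among the Col-0 arrays than among the bam1 arrays. The 5 mesophyll markers (median 0.10) and the 9 vascular markers (median −0.05) were above background on all arrays. Mesophyll sums were 1050000 to 1140000 in droughted bam1, 1070000 to 1110000 in droughted Col-0, 1040000 to 1230000 in bam1 control and 970000 to 1200000 in Col-0 control leaves. Vascular sums were 91100 to 96200 in droughted bam1, 87100 to 94100 in droughted Col-0, 78000 to 91900 in bam1 control and 74000 to 95100 in Col-0 control leaves. Of 5 flower markers, 1 was above background on all arrays and 1 on none, and their sums ran between 104 and 241 over all arrays. The part of these marker levels in the interactions was not tested.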

How the data were processed

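RNA of 11 leaf arrays was read from the deposited scanner files, whose intensity columns, per the file headers, hold signals that Feature Extraction 11.5.1.1 background-subtracted and detrended. The deposited series matrix holds log2 values that the authors quantile-normalised and centred in GeneSpring, and it served as an alternative. Other columns of the deposited scanner files are 0 or 1 flags for outlying, saturated (0 spots) and above-background spots, used here as scores.

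Outlying spots were removed, signals were log2-transformed and quantile-normalised over the 11 arrays, and spots of a probe were averaged. A probe was kept where all arrays of any one group read it well above background, 28739 of 43603, and 24 could not be fitted because a group had no value left. A mean for each of 4 groups was fitted in limma 3.58.1 (lmFit, eBayes) under R 4.3.3, with data.table (version 1.17.8) and jsonlite 2.0.0, which left 7 residual and added 2.94 prior degrees of freedom. Tests are two-sided and Benjamini-Hochberg adjusted over all 28715 probes. A fold given as a lower bound sets the dim group on each array at the lowest signal well above background, 2.76 to 4.07 on the log2 scale, or at the probe's own signal where higher. With 50 simulated features at each size of interaction, 13 were called at 1, 41 at 2, 46 at 3 and 47 at 4, and 6 of 28515 unchanged features were called. All sizes were simulated in the same fit, with normal noise. That many true changes ease the adjusted threshold, so recovery in these data, with far fewer calls, may be lower.

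Loci came from a RefSeq gene table, assembly TAIR10.1 (34348 probes, 78.8%). BAM1 was taken by its locus, since the symbol also belongs to a receptor kinase. Of 53 gene lists, 23 were written by locus and 30 by patterns in symbols and synonyms. The members, lists and tests were chosen with earlier results of these data known. The study had itself picked sugar genes on leaf and stomatal arrays of the series, and wall and auxin genes on its stomatal arrays. Named were the beta-amylases, the called features filled up to 15 at each end by lowest unadjusted p with a locus and an interaction of at least 1 in size, and in each list the members called for the interaction or a genotype difference, or else up to 4 with the largest interaction at an unadjusted p under 0.05. Any other gene named by its values, such as AFP1, was chosen after they were seen. Alternatives were the 75th-percentile scaling, normexp background (offset 50), other filters, all 20 arrays, slide and replicate blocks, array weights, the series matrix, an unmoderated statistic, and leaving out each array. The one that sets the filter again after leaving out an array was added after seeing the data.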

Additional observations from a re-analysis of the deposited data

Results flagged for a closer look

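The interaction itself was called in limma for 6 features. They were both called probes of AT3G19680 (−2.83 and −2.44), AT5G25240 (−2.12), AT2G41330 (−1.72), AT3G43840 (−3.51) and the probe without a locus, A_84_P770280 (−2.95). Droughted bam1 was above background on no array for AT3G43840 and A_84_P770280, so their fitted values are not firm. AT3G43840 passed the probe filter only through the droughted Col-0 arrays, where it is high, so its call depends on that selection. The first of the AT3G19680 probes was called in 21 of 22 other settings, AT2G41330 in 13 of 22, AT5G25240 in 9 of 22, the second AT3G19680 probe in 6 of 22, A_84_P770280 in 9 of 21 and AT3G43840 in 6 of 21. With slide as a fixed block, none was called, and the lowest limma adjusted p was 0.319, in a fit left with few residual degrees of freedom. No cause was tested.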

How the results depend on the processing

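The interaction (6 features called in the report) was called for 11 features with normexp background, 13 with array weights and 3 with all 20 arrays. It was called for 2 with the unmoderated statistic and 0 with slide as a fixed block. That last fit had few residual degrees of freedom and a lowest limma adjusted p of 0.319. Leaving out single arrays gave 1 to 7, and 2 to 179 where the probe filter was also set again. The top of that second range came without Col-0 drought 1, where a probe could pass the filter through the lone droughted Col-0 array. It is therefore no measure of the interaction. With both droughted Col-0 arrays kept, the second range was 2 to 18. The genotype difference in control leaves (136) fell to 88 with no filter on dim probes and was 0 with slide fixed and with the unmoderated statistic. The genotype difference under drought (34) was 97 with normexp, 92 with the filter for all arrays, 100 with all 20 arrays, 148 with slide as a random block, 314 with array weights, and 0 with slide fixed and with the unmoderated statistic. Leaving out single arrays gave 8 to 153 under drought and 74 to 176 under control conditions. With normexp the drought effect was called for 892 features in bam1 and 1085 in Col-0, with slide fixed for 0 and 271, and with the unmoderated statistic for 757 and 17. Leaving out single arrays gave 1347 to 1583 in bam1 and 1169 to 1889 in Col-0.

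The lowest and highest 100 genes were chosen anew in each setting, so these counts are of partly different genes. Of the lowest 100 (43 mainly in the control arrays in the report), 32 lay there with all 20 arrays, in a set that shared 68 genes with the report's, and 22 to 51 when an array was left out, with 45 to 84 genes shared. Of the highest 100 (41 mainly in the droughted arrays), 31 lay there with normexp (44 shared), 17 with slide fixed (19 shared) and 27 to 72 when an array was left out (33 to 80 shared). With slide fixed, 21 of the lowest genes were shared. With no filter, the split of genotype differences under drought was 6 higher and 22 lower in bam1.

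Replicate numbers in the labels did not pair the arrays: same-numbered arrays of different groups had correlated deviations of −0.36 to 0.14. With the replicate number as a block, 2 features were called for the interaction and 9 for the genotype difference under drought. BAM1 had an interaction of 0.04 with this block and −0.47 to 0.26 when single arrays were left out.

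Among 185 results for single probes, 1876 of 2011 values under other processing settings kept direction and side of the threshold, 118 no longer passed it, 16 newly did and 1 turned sign. With an array left out, 1898 of 2029 kept both, 126 no longer passed, 2 newly did and 3 turned sign. Of the list medians, 546 of 561 under other processing settings moved by less than 0.25, the median SE of the interaction of a probe. With an array left out, 549 of 561 did. Precision is limited by the number of arrays, above all the 2 droughted Col-0 arrays. Simulated interactions of 1 log2 unit were called for 13 of 50 features, and recovery in these data may be lower than in that simulation. Transcripts near background, such as AT3G43840, have only bounds, and no slide held control arrays of both genotypes.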

Other observations

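Further transcripts were looked at after their values were seen. GSH2, glutathione synthetase, had 13.27, 13.31 and 13.27 in droughted bam1 leaves and 13.43 and 13.61 in droughted Col-0 leaves. In control leaves it had 12.80, 11.96 and 12.31 in bam1, against 13.72, 13.78 and 13.80 in Col-0. The bam1 control arrays were the lowest, with a genotype difference of −1.41 (limma adjusted p = 0.00758) and an interaction of 1.17 (adjusted p = 0.235). The sulphur-starvation genes LSU3 and LSU1 had interactions of 1.64 and 1.14, with lower estimates in bam1 control leaves (−1.10 and −1.27) that were not called. The ethylene synthesis genes ACS5 and ACS4 had interactions of 2.61 and 1.13. ACS1 was called under drought (limma adjusted p = 0.0438), at least 2.46-fold higher in bam1 than in Col-0, where it was above background on 0 of 2 arrays.

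AT4G17215, a locus without a role stated here, was at least 5.08-fold lower in droughted bam1 than in droughted Col-0 (limma adjusted p = 0.0141). No droughted bam1 array was above background, so its fitted interaction of −2.20 (adjusted p = 0.133) has no firm value. BME3, a GATA factor first described in seed germination, was called higher in bam1 control leaves (2.12, limma adjusted p = 0.00105), with an interaction of −1.40. THE1, a receptor kinase of wall sensing, was called higher in bam1 under both conditions, by 1.76 under drought (limma adjusted p = 0.0256) and 1.60 under control conditions (adjusted p = 0.00772), and its interaction was 0.16.

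Stomata-enriched samples of control plants, which enter no comparison above, were read for the 15 named probes at each end, with no test. At the low end, 13 of 15 probes were higher in bam1 there, with a median difference of 0.58, against 1.78 in control leaves. These 15 probes stood for only 11 loci, with more than 1 probe for AT3G19680 and EXO, and a probe without a locus. AT3G43840, counted as higher, was above background on 1 of 5 arrays. The share over all probes was not counted, and in an earlier result of these data a stomatal array went against its label. At the high end, 7 of 15 were lower in bam1, with a median of 0.03, against −0.62 in control leaves. The AT1G01320 probe was above background on 0 of 5 of these arrays.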
